A study of Mus musculus with 8 samples.

Results

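The 9 genes described here encode enzymes that make serine from a glycolytic intermediate and pass its side-chain carbon to folate, in the cytosol and in mitochondria. They were chosen by name (Phgdh, Psat1, Psph, Shmt1, Shmt2, Mthfd1, Mthfd1l, Mthfd2 and Aldh1l2), and all 9 were among the 24630 genes of the deposited table. Messenger RNA came from skeletal muscle stem cells, which rebuild muscle fibres after injury, of 4 old mice (22 months) and 4 young mice (4 months). All were male C57BL/6 animals, the labels state no allele or agent, and each library was made from a single mouse. The quiescent cells were sorted from limb muscle as CD45-, CD31-, Sca1- and VCAM+ and snap-frozen. In such bulk libraries fewer expressing cells and less RNA per cell cannot be told apart.

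Serine is made in a chain of 3 enzymes. PHGDH oxidises 3-phosphoglycerate, PSAT1 transfers an amino group to the product, and PSPH removes the phosphate. Serine hydroxymethyltransferase, SHMT1 in the cytosol and SHMT2 in mitochondria, then splits serine into glycine and a one-carbon unit on tetrahydrofolate. In mitochondria MTHFD2 oxidises that unit, MTHFD1L releases it as formate, and ALDH1L2 can oxidise it to carbon dioxide. In the cytosol MTHFD1 carries out the matching interconversions, which feed purine and thymidylate synthesis. MTHFD2 is known for high expression in embryonic and dividing cells.

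In old muscle stem cells the mitochondrial enzymes Mthfd2 and Shmt2 rose. Mthfd2 averaged 167 ± 19.4 RPKM in the old mice against 102 ± 9.81 RPKM in the young mice, and Shmt2 33.0 ± 2.99 RPKM in the old mice against 23.9 ± 3.16 RPKM in the young mice (mean ± SD, n = 4 each). Their cytosolic counterparts Mthfd1 and Shmt1 were not called, with log2 fold changes of -0.35 ± 0.13 and 0.05 ± 0.22 (± SE). The contrast itself did not pass in either isozyme pair, with an adjusted exact permutation p of 0.0714 for the Mthfd2 to Mthfd1 ratio and 0.143 for the Shmt2 to Shmt1 ratio. For Mthfd2 to Mthfd1 the raw p (0.0286, exact permutation test) was already the smallest that 70 assignments can give. The Psat1 to Phgdh ratio reached that raw p as well. After adjustment over 5 ratios it passes only if a further ratio reaches it too. The test therefore cannot decide the Mthfd2 to Mthfd1 contrast. Of the other mitochondrial members, Mthfd1l was not called (-0.15 ± 0.20, at a minimum of 1 RPKM). Aldh1l2, at very few reads, was called lower in the fit without a filter (-0.76 ± 0.21), as were 40.2% of 23461 genes. RPKM are reads scaled by gene length and by library size, and here the library size is the library's own total of reads in genes ("library totals") unless the deposited scale is named. On library totals 2 of the 7 members tested were called higher (limma, Benjamini-Hochberg adjusted p under 0.05) and 0 lower, beside 12.3% higher and 12.5% lower of all 5703 genes tested. The members' median log2 fold change was 0.05, and that of all tested genes -0.01.

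The libraries differed in depth and in scaling. Depth here means reads in genes. These numbered 20.1 to 24.9 M (M, the SI prefix mega) in old and 1.91 to 6.56 M in young libraries, so depth and age cannot be told apart. The labels give 26 to 37 M reads for young and old libraries alike. Why fewer reads lay in genes in young libraries was not tested. On the scale as deposited, all tested genes together had a median log2 fold change of 0.64. There 5 of the 7 tested members were called higher and 0 lower, beside 68.1% and 1.12% of all genes, and the members' median was 0.71. Olfactory and vomeronasal receptor genes, 1414 genes of sensory receptor families, averaged 0.0270 ± 0.00987 RPKM in old and 0.486 ± 0.341 RPKM in young libraries. Satellite cell markers, all detected, summed to 8851 to 12644 CPM in old against 9474 to 12651 CPM in young libraries (CPM, counts per M reads in genes), and of the 9 tested 1 was called higher and 5 lower in old mice. Leukocyte markers summed to 27.7 to 69.7 CPM in old against 52.3 to 116 CPM in young libraries, endothelial markers to 162 to 389 CPM in old against 397 to 445 CPM in young libraries, and fibro-adipogenic markers to 3859.6 to 6842 CPM in old against 5230.4 to 6878 CPM in young libraries. Called higher and lower in old mice were 0 and 0 of 2 tested leukocyte, 0 and 0 of 5 endothelial and 1 and 1 of 6 fibro-adipogenic markers. Tenocyte (tendon cell) markers summed to 1877 to 5884 CPM in old against 715 to 1137 CPM in young libraries, with 6 of 6 tested markers called higher. All marker calls are on library totals, where 12.3% of all tested genes were called higher and 12.5% lower. The part of these differences between the libraries in the results was not tested.

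**Figure D1:**
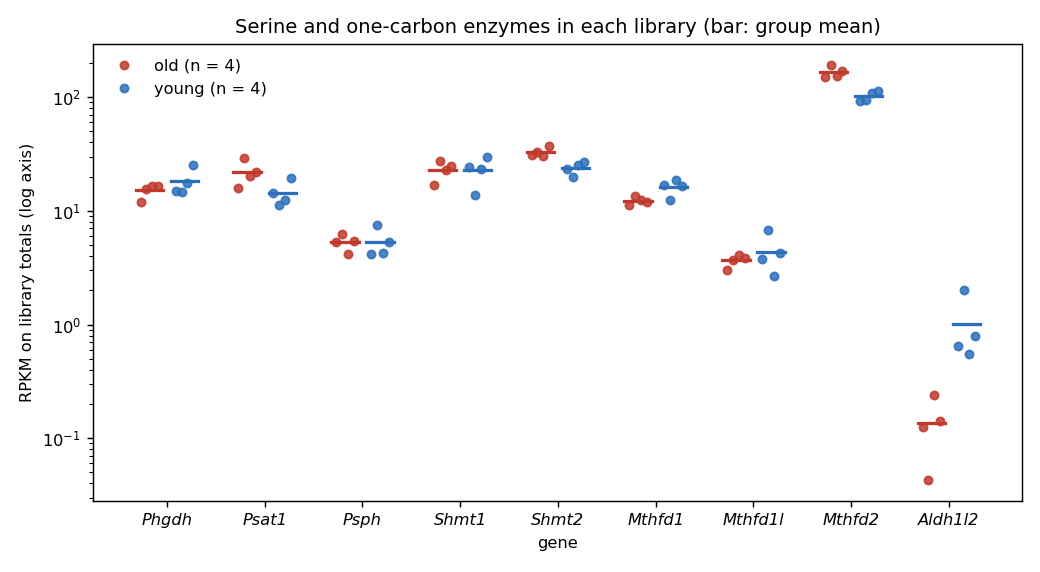
Level of each enzyme in RPKM on library totals (log axis), with old libraries left of young ones, 1 point per mouse and a bar at the mean of 4. Old values of Mthfd2 (149.6 to 193) and of Shmt2 (30.6 to 37.3) lie above every young value, and old values of Aldh1l2 lie below every young value. Of the 5703 genes tested, a set without Aldh1l2, 13.8% lie above and 13.3% below in this way.

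Compared per length, the levels spanned a wide range. In the old mice the order in mean RPKM was Mthfd2 at 167, Shmt2 at 33.0, Shmt1 at 23.1, Psat1 at 21.9, Phgdh at 15.1, Mthfd1 at 12.3, Psph at 5.30, Mthfd1l at 3.67 and Aldh1l2 at 0.137. In the young mice it was Mthfd2 at 102, Shmt2 at 23.9, Shmt1 at 22.8, Phgdh at 18.2, Mthfd1 at 16.1, Psat1 at 14.4, Psph at 5.33, Mthfd1l at 4.35 and Aldh1l2 at 1.00. Mthfd2 led in all 8 libraries, and its mean was 5.06 times that of Shmt2 in old and 4.26 times in young mice. Several neighbours in these orders lay within each other's spread, such as Shmt1 (23.1 ± 4.44) and Psat1 (21.9 ± 5.56) in old mice. In RPKM Psat1 stood above Phgdh in 4 of 4 old and 0 of 4 young libraries. This order depends on the gene lengths used, 4254 bases for Psat1 and 2486 for Phgdh. In reads Psat1 was above Phgdh in young libraries as well. It had 166, 91, 350 and 471 reads in young libraries 1 to 4, against 100, 70, 289 and 357 for Phgdh.

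The start regions of Mthfd2, Psat1 and Shmt2 are shown because these members had the largest positive changes. RefSeq (GRCm38.p6) gave windows of 250 bases before to 50 bases after a start for 8 of the 9 members. Each is printed on the gene's strand, with every CCAAT box on either strand (CCAAT or ATTGG) in capitals.
Mthfd2, chr6:83317555-83317854, minus strand: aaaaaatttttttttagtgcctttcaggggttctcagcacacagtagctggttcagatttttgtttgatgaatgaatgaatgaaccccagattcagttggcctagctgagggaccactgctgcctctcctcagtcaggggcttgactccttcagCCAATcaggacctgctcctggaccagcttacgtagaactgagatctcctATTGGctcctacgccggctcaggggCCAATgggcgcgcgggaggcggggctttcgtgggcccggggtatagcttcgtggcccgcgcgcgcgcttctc
Psat1, chr19:15925010-15925309, minus strand: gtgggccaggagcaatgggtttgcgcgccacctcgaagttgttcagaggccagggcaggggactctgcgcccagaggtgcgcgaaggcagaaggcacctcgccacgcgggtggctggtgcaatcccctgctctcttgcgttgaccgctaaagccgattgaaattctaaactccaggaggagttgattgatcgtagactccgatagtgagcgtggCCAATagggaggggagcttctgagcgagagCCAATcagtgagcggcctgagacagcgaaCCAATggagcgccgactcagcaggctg
Shmt2, chr10:127522395-127522694, minus strand: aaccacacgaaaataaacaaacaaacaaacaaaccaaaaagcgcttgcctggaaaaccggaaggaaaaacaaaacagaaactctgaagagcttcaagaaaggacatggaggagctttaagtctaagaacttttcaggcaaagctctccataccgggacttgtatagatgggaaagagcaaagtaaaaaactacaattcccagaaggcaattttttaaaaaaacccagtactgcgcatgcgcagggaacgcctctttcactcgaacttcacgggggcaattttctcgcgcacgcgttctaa
CCAAT boxes, the letters bound by the factor NF-Y, numbered 3 in the Mthfd2 window, 3 in this Psat1 window, 0 in the other window listed for Psat1 and 0 in the Shmt2 window. The windows of other members held them too, 2 each for Phgdh and Psph and 1 each for Shmt1 and Mthfd1, while Mthfd1l had 0. At least 1 was present in 37.4% and at least 3 in 3.37% of 32851 windows of the same length. The letters TGATGNAA of a composite site of ATF4, searched on both strands, were in 0 of the members' 9 windows and in 3.97% of all windows. The E-box CACGTG was in 0 of the 9 and in 7.15% of all.

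Phgdh (ENSMUSG00000053398, chromosome 3, 98313170 to 98339990, minus strand, GRCm38), the dehydrogenase that opens serine synthesis, had 11.9, 15.6, 16.4 and 16.7 RPKM in old libraries 1 to 4, against 14.9, 14.7, 17.7 and 25.2 RPKM in young libraries 1 to 4. The groups overlapped, and the highest value was in young library 4. Its log2 fold change was -0.23 ± 0.17 (SE; limma, adjusted p = 0.367; 95% interval -0.61 to 0.16), against 0.43 ± 0.23 (adjusted p = 0.0957) with deposited scaling, so the sign differed between scales and neither value was called. A processed pseudogene, Phgdh-ps1, is annotated and could share reads with it.

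Psat1 (ENSMUSG00000024640, chromosome 19, 15904678 to 15947337, minus strand), the aminotransferase, had 15.9, 29.3, 20.3 and 22.1 RPKM in old libraries 1 to 4, against 14.5, 11.2, 12.5 and 19.5 RPKM in young libraries 1 to 4. Of the old libraries 3 lay above all young ones, and old library 1 lay within the young range. Its log2 fold change of 0.57 ± 0.20 did not pass the threshold (limma, adjusted p = 0.0563; 95% interval 0.14 to 1.00), and with deposited scaling it was 1.22 ± 0.24 (adjusted p = 0.000285). On library totals the adjusted p was 0.0279 without old library 1 and 0.0261 without young library 4, and it ranged from 0.0261 to 0.259 over all 18 alternatives.

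Psph (ENSMUSG00000029446, chromosome 5, 129765558 to 129787449, minus strand), the phosphatase of the last step, had 5.27, 6.30, 4.21 and 5.44 RPKM in old libraries 1 to 4, against 4.20, 7.49, 4.26 and 5.36 RPKM in young libraries 1 to 4. The groups overlapped almost fully. The log2 fold change was 0.01 ± 0.19 (limma, adjusted p = 0.966; 95% interval -0.40 to 0.42). With deposited scaling it was 0.60 ± 0.19 (adjusted p = 0.00831), below the median of all genes on that scale. Psph overlaps Cct6a on the opposite strand over 452 bases, and the labels name no strand-marking step.

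A ratio of 2 enzymes in the same library depends on the scaling only through the pseudocount of 0.1 RPKM added to the deposited values, and with library totals the 5 differences had the same sign and side of the threshold. The Psat1 to Phgdh ratio was 1.34, 1.88, 1.24 and 1.32 in old libraries, against 0.970, 0.762, 0.710 and 0.772 in young libraries. All old ratios were above all young ones. The share of other gene pairs that separate in this way was not computed. The mean log2 ratio was higher by 0.84 in old mice (exact two-sided permutation p = 0.0286, adjusted over the 5 ratios p = 0.0714), the raw p being the smallest that 70 assignments can give. For Psph to Phgdh the difference was 0.25 (exact two-sided permutation p = 0.486, adjusted over the 5 ratios p = 0.607), and the groups overlapped.

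Shmt2 (ENSMUSG00000025403, chromosome 10, 127517123 to 127522444, minus strand), the mitochondrial hydroxymethyltransferase, had 31.3, 32.7, 30.6 and 37.3 RPKM in old libraries 1 to 4, against 23.3, 19.7, 25.4 and 27.1 RPKM in young libraries 1 to 4. All old values lay above all young values, as was so for 13.8% of genes tested. It rose by 0.45 ± 0.13 on the log2 scale with library totals (limma, adjusted p = 0.0221; 95% interval 0.18 to 0.73), and by 1.12 ± 0.22 with deposited scaling (adjusted p = 0.000198). On library totals the call was lost without old library 4 (adjusted p = 0.0680), without young library 1 (0.0565) and without both shallowest young libraries, 1 and 2 (log2 fold change 0.32, adjusted p = 0.128).

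Shmt1 (ENSMUSG00000020534, chromosome 11, 60788104 to 60811718, minus strand), the cytosolic isozyme, had 17.1, 27.6, 23.0 and 24.7 RPKM in old libraries 1 to 4, against 24.5, 13.7, 23.2 and 29.9 RPKM in young libraries 1 to 4. The groups overlapped, and the lowest value was in young library 2, the shallowest. Its log2 fold change was 0.05 ± 0.22 (limma, adjusted p = 0.897; 95% interval -0.43 to 0.52) and -0.17 without young library 2. With deposited scaling it was 0.71 ± 0.27 (adjusted p = 0.0221), a call lost without old library 2 (0.0987), old library 4 (0.0592) or young library 2 (0.105). The Shmt2 to Shmt1 ratio was 1.83, 1.19, 1.33 and 1.51 in old libraries, against 0.954, 1.43, 1.10 and 0.906 in young libraries. The ratios overlapped, and the mean log2 difference was 0.42 (exact two-sided permutation p = 0.0857, adjusted over the 5 ratios p = 0.143), so the isozymes were not shown to differ in their change.

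Mthfd2 (ENSMUSG00000005667, chromosome 6, 83305691 to 83325908, minus strand), the mitochondrial dehydrogenase and cyclohydrolase, had 10469, 16725, 12355 and 12313 reads in old libraries 1 to 4, against 871, 628, 2467 and 2229 reads in young libraries 1 to 4. Scaled to library totals these were 149.6, 193, 155 and 169.7 RPKM in old, against 92.7, 94.2, 108 and 112 RPKM in young libraries. The lowest old mouse stood above the highest young mouse, as was so for 13.8% of genes tested. The mean was 1.64 times as high in old mice. The log2 fold change was 0.70 ± 0.12 (limma, adjusted p = 0.00323; 95% interval 0.43 to 0.98), which ranked 593 by size among the 5703 genes, and 1.39 ± 0.24 with deposited scaling (adjusted p = 6.34e-05). It was called in each of 18 alternatives on library totals, with values of 0.59 to 0.75.

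Mthfd1 (ENSMUSG00000021048, chromosome 12, 76255298 to 76319803, plus strand), the cytosolic trifunctional enzyme, had 11.2, 13.5, 12.5 and 12.0 RPKM in old libraries 1 to 4, against 16.7, 12.6, 18.7 and 16.4 RPKM in young libraries 1 to 4. Old library 2 lay above young library 2, and otherwise every old value was below every young one. Its log2 fold change was -0.35 ± 0.13 (limma, adjusted p = 0.0711; 95% interval -0.64 to -0.06), against 0.29 ± 0.21 (adjusted p = 0.212) with deposited scaling, of the opposite sign. Without young library 2, where the gene had 80 reads, it was -0.46 on library totals (adjusted p = 0.0139).

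The Mthfd2 to Mthfd1 ratio was 13.2, 14.2, 12.3 and 14.1 in old libraries, against 5.50, 7.40, 5.74 and 6.81 in young libraries. The groups lay apart, and the geometric mean was 2.13 times as high in old mice. Here too the share of other gene pairs that separate was not computed. The mean log2 difference was 1.09 (exact two-sided permutation p = 0.0286, adjusted over the 5 ratios p = 0.0714), higher in 4 of 4 old libraries than in any young one. The adjusted p missed the threshold. The Psat1 to Phgdh ratio reached the same smallest possible raw p, and both pass only if a further ratio reaches it too.

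Mthfd1l (ENSMUSG00000040675, chromosome 10, 3973118 to 4167081, plus strand), the mitochondrial formate-producing enzyme, lay below the mean of 5 RPKM required for the test. It had 3.03, 3.67, 4.09 and 3.87 RPKM in old libraries 1 to 4, against 3.77, 6.72, 2.68 and 4.24 RPKM in young libraries 1 to 4. The young values enclosed all old ones. At a minimum of 1 RPKM its log2 fold change was -0.15 ± 0.20 (limma, adjusted p = 0.595; 95% interval -0.60 to 0.30) and 0.41 ± 0.17 with deposited scaling (adjusted p = 0.0589), where 27.7% and 47.4% of 11096 genes were called and the medians of all genes were -0.19 and 0.36. The Mthfd1l to Mthfd1 ratio was 0.275, 0.276, 0.332 and 0.327 in old libraries, against 0.230, 0.540, 0.148 and 0.264 in young libraries. The mean log2 difference was 0.19 (exact two-sided permutation p = 0.629, adjusted over the 5 ratios p = 0.629). Without young library 2 it was 0.53 (exact permutation test, adjusted p = 0.0476), and without young library 3 it was -0.0873.

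**Figure D2:**
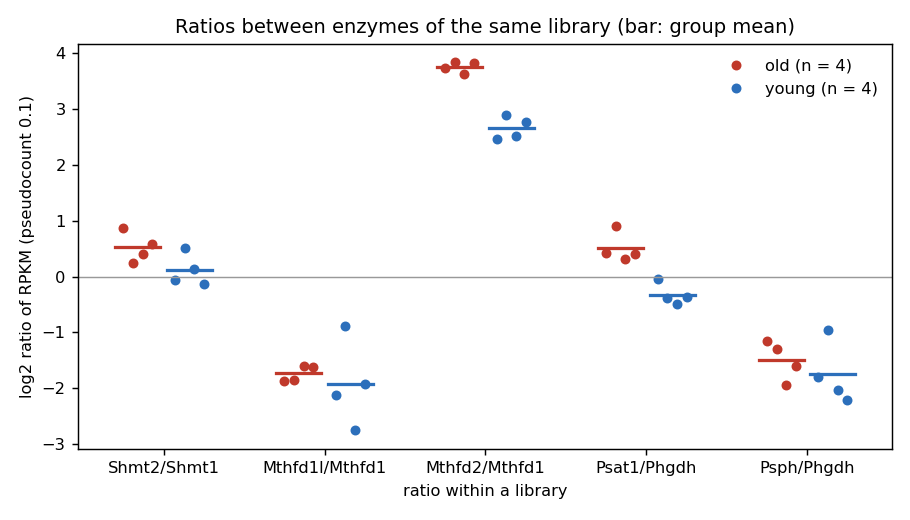
Log2 ratio of 2 enzymes in the same library (RPKM, pseudocount 0.1), old left of young, 1 point per mouse and a bar at the mean of 4. Mthfd2/Mthfd1 is 3.62 to 3.83 in old and 2.46 to 2.89 in young libraries, Psat1/Phgdh also separates the groups, and the other ratios overlap.

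Aldh1l2 (ENSMUSG00000020256, chromosome 10, 83487450 to 83534140, minus strand), the mitochondrial formyltetrahydrofolate dehydrogenase, was the least abundant, with 19, 8, 41 and 22 reads in old libraries 1 to 4, against 13, 29, 27 and 34 reads in young libraries 1 to 4. These gave 0.126, 0.0429, 0.239 and 0.141 RPKM in old, against 0.643, 2.02, 0.549 and 0.796 RPKM in young libraries. All old values lay below all young ones. This was so for 13.3% of the 5703 genes tested at the 5 RPKM minimum, a set without Aldh1l2. The share among genes at its level was not computed. The receptor genes named above had library means of 0.0163 to 0.0360 RPKM in old and 0.202 to 0.982 RPKM in young libraries, and their part in this difference was not tested. Without a filter the log2 fold change was -0.76 ± 0.21 (limma, adjusted p = 0.0213) and -0.55 ± 0.14 with deposited scaling (adjusted p = 0.0107). In those fits 40.2% and 29.4% of 23461 genes were called lower. Aldh1l2 overlaps D10Wsu102e on the opposite strand over 1056 bases.

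**Figure D3:**
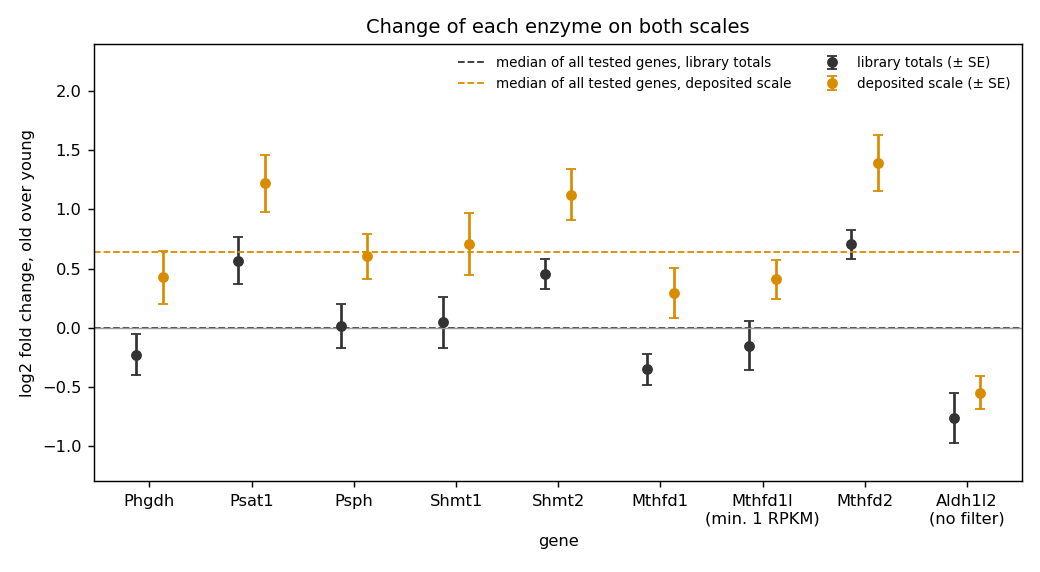
Log2 fold change, old over young, of each enzyme on library totals (black) and on the deposited scale (orange), with SE, and dashed lines at the medians of all 5703 genes tested (-0.01 and 0.64). Mthfd2, Shmt2, Psat1 and, narrowly, Shmt1 lie above the line of each scale, Phgdh and Mthfd1 below it. Mthfd1l was fitted at a minimum of 1 RPKM and Aldh1l2 without a filter, so the lines are not the medians of their fits, and Mthfd1l lies above those of its own (-0.19 and 0.36).

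Genes around these enzymes came from 9 lists. Of the 42 tested, 10 were called higher and 2 lower on library totals, beside 12.3% and 12.5% of all genes, and 34 higher and 0 lower on the deposited scale, beside 68.1% and 1.12%. The 10 higher ones were called higher on both scales. At a minimum of 1 RPKM 68 were tested, with 10 higher and 11 lower on library totals, beside 7.11% and 20.5% of all genes. Of 8 further folate enzymes 0 reached the mean of 5 RPKM. At a minimum of 1 RPKM 5 were tested, 0 were higher and 2 lower. Thymidylate synthase Tyms had 1.90 ± 0.0918 RPKM in the old mice against 3.79 ± 0.674 RPKM in the young mice (limma, adjusted p = 0.00689). Aldh1l1, the cytosolic formyltetrahydrofolate dehydrogenase, had 1.87 ± 0.459 RPKM in the old mice against 3.12 ± 0.337 RPKM in the young mice (adjusted p = 0.0291). Of the glycine cleavage system Gcsh (0.30 ± 0.17, adjusted p = 0.202) and Dld (-0.03 ± 0.12, adjusted p = 0.873) were tested, and neither was called.

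The methionine cycle takes methyl groups from folate. In its list, with transsulfuration, 2 of 6 tested genes rose and 0 fell (median 0.29), beside 12.3% and 12.5% of all genes. At a minimum of 1 RPKM 10 were tested, with 2 higher and 1 lower, beside 7.11% and 20.5% of all genes. The lower one was Mat2b (-0.50, limma, adjusted p = 0.0283). Methionine synthase reductase Mtrr rose by 0.57 ± 0.13 in log2 units (limma, adjusted p = 0.00853). The S-adenosylmethionine synthetase Mat2a rose by 0.51 ± 0.12 (adjusted p = 0.0113), with 602 ± 55.1 RPKM in the old mice against 423 ± 37.3 RPKM in the young mice, a call lost without both shallowest young libraries (adjusted p = 0.0585). Ahcyl1 had 0.28 ± 0.11 (adjusted p = 0.0935).

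Of the folate and serine carriers and folate-retaining enzymes 7 were tested. Of these 1 rose and 0 fell (median 0.26), beside 12.3% and 12.5% of all genes. At a minimum of 1 RPKM 10 were tested, with 1 higher and 2 lower, beside 7.11% and 20.5% of all genes. The lower ones were Sfxn2 (-0.74, limma, adjusted p = 0.00743) and Slc46a1 (-0.73, adjusted p = 0.0375). The neutral amino acid transporter Slc1a5 rose by 0.96 ± 0.19 (limma, adjusted p = 0.00585), with 51.4 ± 13.2 RPKM in the old mice against 25.3 ± 3.83 RPKM in the young mice. The serine transporter Slc1a4 had 0.47 ± 0.18 (adjusted p = 0.0725) and the folate hydrolase Ggh -0.31 ± 0.12 (adjusted p = 0.0863).

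Purine synthesis uses formyl groups from folate. Of its genes 2 of 6 tested rose and 1 fell as a share of reads (median 0.13), beside 12.3% and 12.5% of all genes. The phosphoribosyl pyrophosphate synthetase Prps1 rose by 0.87 ± 0.15 (limma, adjusted p = 0.00259) and the amidotransferase Ppat by 0.84 ± 0.15 (adjusted p = 0.00338). Prps2 fell by 0.61 ± 0.17 (adjusted p = 0.0270), had -0.03 with deposited scaling, and lost its call without any 1 of old libraries 2 and 4 and young libraries 3 and 4 (adjusted p up to 0.0820).

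**Figure D4:**
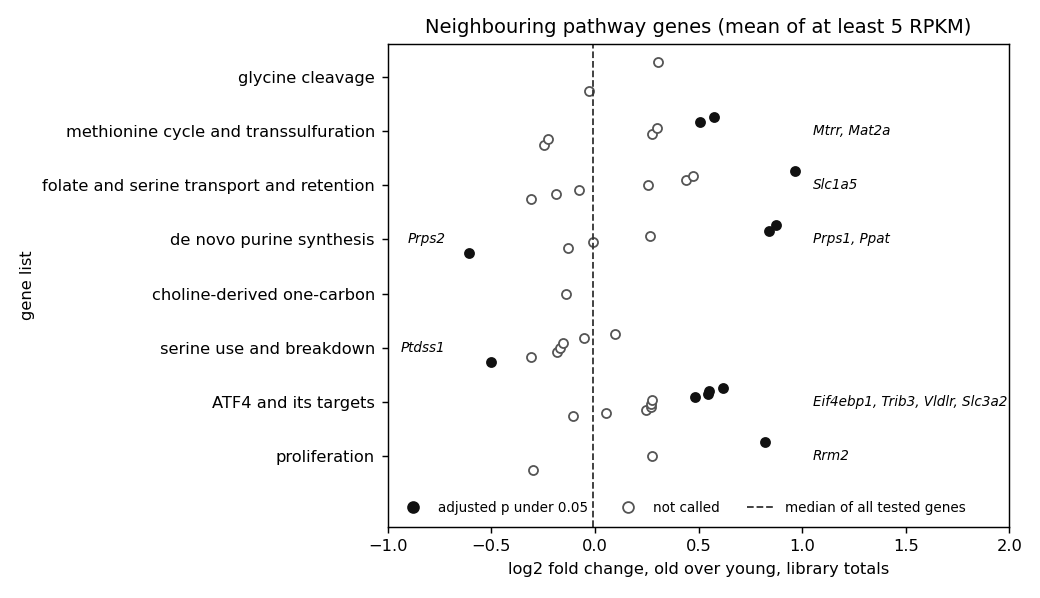
Log2 fold change, old over young, on library totals of each tested gene in 8 lists, filled where the adjusted p was under 0.05, with the called genes named and a dashed line at the median of all genes (-0.01). The 10 higher genes lie in 5 lists, and the 2 lower ones are Prps2 and Ptdss1, whose change with deposited scaling was -0.03 and 0.11.

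ATF4, a transcription factor of amino acid stress, is known to act on genes of serine synthesis and Mthfd2. Of Atf4 and its targets 4 of 10 tested rose and 0 fell (median 0.27), beside 12.3% and 12.5% of all genes on library totals. On the deposited scale 10 of 10 were called higher, beside 68.1%. The translation inhibitor Eif4ebp1 rose by 0.62 ± 0.14 (limma, adjusted p = 0.0110). The transporter subunit Slc3a2 (0.48 ± 0.14, adjusted p = 0.0280), the pseudokinase Trib3 (0.55 ± 0.17, 0.0330) and the lipoprotein receptor Vldlr (0.55 ± 0.18, 0.0499) rose with all libraries, but lost their calls in 6, 6 and 7 of 8 fits with 1 library left out (adjusted p up to 0.0757, 0.0917 and 0.139). Atf4 itself, named after its values were seen, had 296 ± 23.4 RPKM in the old mice against 250.2 ± 31.6 RPKM in the young mice, with a log2 fold change of 0.24 ± 0.12 (adjusted p = 0.173).

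Of genes that use or break down serine 7 were tested. Of these 0 rose and 1 fell as a share of reads (median -0.17), beside 12.3% and 12.5% of all genes. At a minimum of 1 RPKM 10 were tested, with 0 higher and 3 lower, beside 7.11% and 20.5% of all genes. The lower ones were Ptdss1, Sdsl (-0.56, limma, adjusted p = 0.0223) and Ptdss2 (-0.66, adjusted p = 0.0470). The phosphatidylserine synthase Ptdss1 fell by 0.50 ± 0.13 (limma, adjusted p = 0.0159), had 0.11 with deposited scaling, and was not called with reads thinned to the smallest library (adjusted p = 0.0670). Of the choline route Aldh7a1 was the gene tested at 5 RPKM (-0.14 ± 0.11, adjusted p = 0.404). At a minimum of 1 RPKM 2 were tested, with 0 higher and 1 lower, beside 7.11% and 20.5% of all genes. The lower one was Sardh (-0.62, limma, adjusted p = 0.0154). Of 14 proliferation genes 3 were tested, 1 rose and 0 fell (median 0.28), beside 12.3% and 12.5% of all genes. The ribonucleotide reductase subunit Rrm2 rose by 0.82 ± 0.27 (adjusted p = 0.0449), a call lost in 7 of 8 fits with 1 library left out (adjusted p up to 0.101). Pcna had 0.28 ± 0.12 (adjusted p = 0.127) and Mcm3 -0.30 ± 0.13 (adjusted p = 0.126). Of the 11 below 5 RPKM, 11 had a lower mean in old than in young mice. Most genes below 5 RPKM in the other lists did so too. These were 8 of 8 folate, 6 of 6 methionine, 5 of 5 carrier, 4 of 4 choline and 2 of 2 glycine cleavage genes. In the lists of serine use, ATF4 and purine synthesis it was 3 of 4, 3 of 5 and 1 of 2. At a minimum of 1 RPKM 7 proliferation genes were tested. Of these 1 was called higher and 1 lower, beside 7.11% and 20.5% of all genes. The lower one was the topoisomerase Top2a, with 0.297 ± 0.0974 RPKM in the old mice against 2.20 ± 1.10 RPKM in the young mice (limma, adjusted p = 0.00743). The receptor genes named above averaged 0.0270 RPKM in old and 0.486 RPKM in young libraries, and their part in these low values was not tested.

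The genes whose profile over the 8 libraries lay nearest to that of Mthfd2 were Ctps, Eif1ad and Zwint, with root mean square distances of 0.0837, 0.0867 and 0.0924 between centred log2 profiles, where the median over 5696 genes was 0.438. For Phgdh they were Akr1a1, Sdhc and Nudcd3, at 0.117, 0.120 and 0.126, with a median of 0.373. Libraries of one age group also share their range of depth, so this is a description only.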

How the data were processed

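The authors deposited RPKM per gene. Trim Galore, STAR, featureCounts, Subread and edgeR are named with mm10 and GRCm38, per the submitters' processing notes, and their settings were not found in the sources used here. Libraries were primed with oligo(dT) from 10 ng of RNA, per the labels' protocols.

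The deposited RPKM were whole multiples of 1 read, so reads were recovered and RPKM rescaled by total reads in genes. limma 3.58.1 (R 4.3.3, with a trend) was fitted to log2(RPKM + 1), old minus young, for 5703 genes with a mean deposited RPKM of at least 5, and tested on simulated data. This scale understates changes of low genes. Ratios used a pseudocount of 0.1 RPKM. Coordinates are from GENCODE M21. The gene length behind the RPKM differed from it for Shmt2 (2305 against 3109 bases) and Mthfd1 (3324 against 4442).

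All 9 members are named, with up to 3 genes per list by smallest adjusted p on library totals and any gene a count needs. Members and lists were chosen with earlier results of these data known. "Rose" means called on both scales, "fell" on library totals. Counting precision is limited by depth, and amplified reads are not independent molecules.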

Additional observations from a re-analysis of the deposited data

Results flagged for a closer look

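Of 28 sets of 4 libraries examined for a value far from the others, 1 stood out, and chance alone gives about 1 in 20. Aldh1l2 had 2.02 RPKM on library totals in young library 2, with a gap to the next value of 0.832 of the group's range. That library has the fewest reads in genes (1.91 M), and the part of depth in the value was not tested.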

How the results depend on the processing

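On library totals 701 genes were higher and 714 lower. The higher count was 453 without both shallowest young libraries. The lower count was 2280 at a minimum of 1 RPKM, 384 at 10 RPKM and 9423 without a filter. With deposited scaling the lower count of 64 became 592, 24 and 6908 under these filters, 122 without both shallowest and 44 to 129 with 1 library left out. Members called on library totals numbered 2, 5 without a filter and 1 to 3 with 1 library left out. The 5 were Mthfd2, Shmt2 and Psat1, called higher, and Mthfd1 and Aldh1l2, called lower. In that fit 949 of 23461 genes were called higher and 9423 lower. Of listed neighbours 10 were higher, 5 without both shallowest and 6 to 9 with 1 library left out. Lower neighbours numbered 2, against 11, 0 and 30 under the filters of 1 RPKM, 10 RPKM and none, 0 with thinned reads, 1 without both shallowest and 1 to 3 with 1 library left out. Uncalled members near 0 changed sign: with 1 library left out Psph ranged from -0.0706 to 0.165 and Shmt1 from -0.168 to 0.188, and Shmt1 was -0.00496 with limma-voom and -0.201 without both shallowest. With 1 library left out the log2 ratio difference ranged from 1.02 to 1.17 for Mthfd2/Mthfd1, 0.703 to 0.930 for Psat1/Phgdh and -0.0873 to 0.534 for Mthfd1l/Mthfd1, and without young library 2 each passed (exact permutation test, adjusted p = 0.0476). For Mthfd2/Mthfd1 and Psat1/Phgdh the raw p (exact permutation test) was 0.0286, the smallest possible, with all libraries and also without young library 2. Their adjusted p fell only because Mthfd1l/Mthfd1 then reached that value as well. Why Mthfd1l/Mthfd1 moved was not tested. Old and young libraries share the numbers 1 to 4, but are different mice, and deviations of same-numbered libraries correlated at -0.157, -0.0630, 0.384 and -0.228, so the numbers do not pair them; 1 of 4 matched its own number best. With the replicate block 635 genes were higher and 656 lower on library totals, with 2 members called, and the ratios Mthfd2/Mthfd1 and Psat1/Phgdh had an exact permutation p = 0.125, the smallest that 4 pairs allow.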
